A study of Mus musculus with 15 samples.

Results

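The RNA levels of 10 interferon-induced antiviral effector genes, Rsad2, Cmpk2, Mx1, Mx2, Bst2, Rtp4, Xaf1, Ifi44, Ifi35 and Tmem140, were followed in CT26 cells, a mouse colon carcinoma line derived from a BALB/c tumor. The genes were chosen by name as effectors outside the larger interferon-induced families, with earlier results of these data known. All 10 were found by symbol among the 34432 genes of both deposited tables. The study comprised 2 experiments with 15 libraries in all. In the first, 3 libraries from cells carrying a control hairpin (shControl) were set against 3 from cells carrying a hairpin against Prmt1 (shPrmt1), the latter being a stable line with a doxycycline (DOX)-inducible construct that received DOX for 3 days; whether the shControl cells received DOX is not given in the sources used here. In the second, cells labelled as wild type received vehicle or 1 of a pair of inhibitors, MS023 and GSK3368715, both at 6 µM for 48 hours, with 3 libraries per group. MS023 and GSK3368715 are small molecules that inhibit the type I protein arginine methyltransferases, to which PRMT1 belongs. Every group is of the CT26 line in culture, with hairpin-carrying cells in the first experiment. The paper states in general terms that its quantitative data come from 3 or more independent experiments or biological replicates, with exceptions stated.

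Interferons bind receptors on the cell surface, and the JAK kinases attached to these receptors phosphorylate transcription factors such as STAT2, which joins IRF9 in a complex that binds interferon-stimulated response elements in the promoters of many genes. The products of such genes block separate steps of viral growth. RSAD2 (viperin) converts CTP into a chain terminator of viral RNA synthesis, CMPK2 is a mitochondrial nucleotide kinase, MX1 and MX2 are dynamin-like GTPases that trap viral components, and BST2 (tetherin) holds budding particles at the cell surface. Tumor cells can also express these genes without any virus, when cytosolic DNA or RNA sensors are active.

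The knockdown could be checked on its target. Prmt1 had a mean of 5646 ± 62.2 normalized counts (SD, n = 3) in shControl cells and 704 ± 49.8 (SD, n = 3) in shPrmt1 cells, while MS023 and GSK3368715 left its RNA at 14826 ± 661 and 15489 ± 806 (SD, n = 3) against 15611 ± 488 (SD, n = 3) with vehicle. A normalized count is a gene's reads divided by the size factor of its library. Depth, as reads on genes, was 17284091 to 29233738 in the knockdown libraries and 40119305 to 93697833 in the inhibitor libraries. Among 12 markers of immune, endothelial and fibroblast cells, the T cell gene Cd3e, the macrophage gene C1qa and the natural killer cell gene Ncr1 had no read in any library. The summed level of the 12 markers was 101 to 130.4 reads-per-million (RPM) in shControl, 155 to 249 in shPrmt1, 319 to 330.0 in vehicle, 202 to 268 in MS023 and 294 to 337 in GSK3368715 libraries, most of it Col1a1, a collagen gene of fibroblasts and mesenchymal tumor cells; its part in the results was not tested. Of 8 epithelial and colon markers, Epcam was at 0 in all libraries and Krt18 was the highest, with 14.6 to 28.4 RPM. Krt20 had 5.13 to 9.26 RPM, while Cdh1, Krt8, Krt19, Cdx2 and Vil1 had at most 0.446 RPM in any library. Most of the 8 markers were thus absent or low in this line, while Krt18 and Krt20 were present.

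The 10 genes lie on 6 chromosomes of mm10. Rsad2 (chromosome 12, 26442746 to 26456452, minus strand) and Cmpk2 (chromosome 12, 26469204 to 26479837, plus strand) point away from each other across a gap of 12.8 kb. Mx1 (97447035 to 97462907, minus strand) and Mx2 (97535308 to 97560900, plus strand) lie on chromosome 16, where Rtp4 (23520291 to 23614222, plus strand) lies far from both. Chromosome 11 holds Xaf1 (72301629 to 72313733, plus strand) and Ifi35 (101448407 to 101458698, plus strand). Bst2 is on chromosome 8 (71534255 to 71537456, minus strand), Ifi44 on chromosome 3 (151730922 to 151749960, minus strand) and Tmem140 on chromosome 6 (34863146 to 34874946, plus strand).

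Promoter sequences of 7 of the 10 genes, all but Mx1, Mx2 and Rtp4, were matched in RefSeq (GRCm38.p6), from 250 bases before to 50 bases after each gene's start. The core of the interferon-stimulated response element was searched on both strands as GAAA, any 2 bases and GAAA again, which 3.44% of 32851 mouse promoters hold in a window of this length, and it was found in 3 of the 7, Rsad2, Bst2 and Tmem140. The shorter IRF element AANNGAAA, which lies within every such core, occurred in 6 of the 7, all but Cmpk2, and in 23.9% of all promoters. A match of letters is a description of the sequence and no evidence of binding. The windows that hold the response element core of Rsad2, Bst2 and Tmem140 are shown with the core in capitals. The window of Xaf1, the gene called with neither inhibitor in the main fit, has its IRF element in capitals.
Rsad2, chr12:26456543-26456612, minus strand: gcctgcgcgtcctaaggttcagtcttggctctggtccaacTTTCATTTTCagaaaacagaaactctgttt
Bst2, chr8:71537567-71537636, minus strand: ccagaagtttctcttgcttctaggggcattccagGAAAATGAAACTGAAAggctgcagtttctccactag
Tmem140, chr6:34863043-34863112, plus strand: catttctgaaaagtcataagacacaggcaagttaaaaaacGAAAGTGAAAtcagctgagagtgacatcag
Xaf1, chr11:72301559-72301628, plus strand: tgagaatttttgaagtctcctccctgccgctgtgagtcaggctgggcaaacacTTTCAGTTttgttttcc
In Bst2 the 2 matches of the core overlap, and in Rsad2 and Xaf1 the match reads on the other strand.

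Prmt1 depletion came with more RNA of every gene of the set. Ifi44 was 5.3-fold higher in the shPrmt1 libraries than in the shControl libraries, Rsad2 3.23-fold, Xaf1 3.11-fold and Cmpk2 2.81-fold, and the smallest ratio of the means was the 1.77-fold of Ifi35. Of the 10 genes, 9 had at least 10 normalized counts in each shControl library, and limma called all 9 of these higher at an adjusted p under 0.05, where 7.5% of the 11485 genes tested were called higher. Each of the 9 also had every shPrmt1 library above every shControl library, a pattern found in 19.2% of the genes tested. The median log2 fold change of these 9 genes was 1.41, and that of all genes tested was -0.0036. Because the set was chosen with earlier results of these data known, its excess over all genes is a description and no independent test. Mx1 is counted apart, because it passed the filter on low values through its shPrmt1 libraries alone. In bulk RNA, more cells that express a gene and more RNA per cell cannot be told apart.

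**Figure D1:**
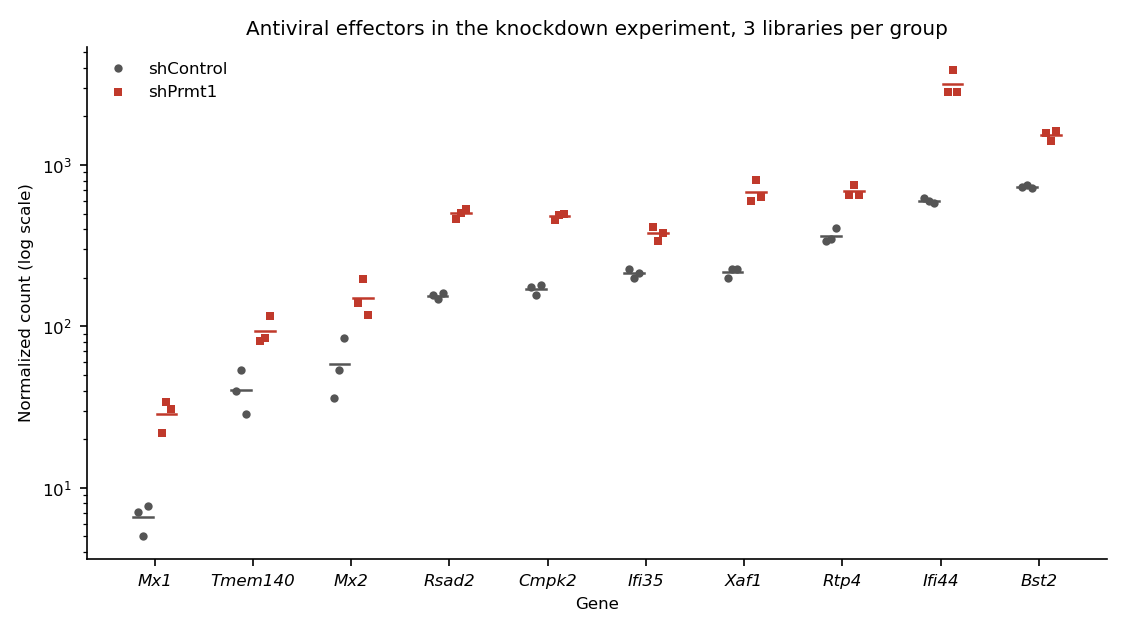
Normalized counts (log scale) of the 10 antiviral genes in the 3 shControl (circles) and 3 shPrmt1 (squares) libraries, with a short line at each group mean. For every gene the lowest square lies above the highest circle, from Mx1 at 5.04 to 33.9 normalized counts up to Ifi44, whose shPrmt1 libraries reach 3859.

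Both genes of the nucleotide pair on chromosome 12 rose with little spread. Rsad2 stood at 156, 148 and 161 normalized counts in shControl 1, 2 and 3 and at 464, 507 and 532 in shPrmt1 1, 2 and 3. Its log2 fold change was 1.68 ± 0.10 (SE, n = 3 per group; limma, adjusted p = 5.1e-05). Cmpk2, its neighbour, stood at 176, 157 and 180.2 in shControl and at 458, 487 and 498 in shPrmt1 cells, a log2 fold change of 1.49 ± 0.10 (SE; limma, adjusted p = 9.8e-05). In both genes the shPrmt1 libraries lay close together and far from the controls.

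The Mx GTPases were low in these cells, and the libraries of Mx2 scattered more. Mx2 had 36.1, 53.3 and 85.1 normalized counts in shControl against 139, 195 and 117 in shPrmt1 cells, so that the groups did not overlap and shControl 3 and shPrmt1 3 were the closest libraries. Its log2 fold change was 1.41 ± 0.31 (SE; limma, adjusted p = 0.02), and the call was lost without shControl 1 (1.12, adjusted p = 0.062) or shControl 2 (1.39, adjusted p = 0.065). For Mx1 the controls had 7.04, 5.04 and 7.74 normalized counts, from 7 to 8 reads each, and the depleted cells had 21.7, 33.9 and 30.6, from 19 to 30 reads. Mx1 thus rested on few reads, and its log2 fold change of 1.96 ± 0.33 (SE; limma, adjusted p = 0.0065) understates the ratio of the means, 4.35-fold, because 1 is added to each value before the logarithm. With no filter on low values Mx1 was called as well (adjusted p = 0.01). Many inbred laboratory mouse strains carry defective Mx1 and Mx2 alleles. RefSeq lists both genes as transcribed pseudogenes on the reference genome, whereas GENCODE lists Mx1 as protein-coding and Mx2 as a polymorphic pseudogene. These data give RNA, not functional protein.

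Among the membrane and chaperone proteins, Bst2 was the most abundant. Its values were 729, 747 and 718 normalized counts in shControl against 1578, 1407 and 1630.1 in shPrmt1 cells, with a log2 fold change of 1.07 ± 0.08 (SE; limma, adjusted p = 0.00014). Rtp4, a chaperone that brings certain G protein-coupled receptors to the surface and that interferon induces, had 338, 346 and 409 in shControl and 650.4, 754 and 654 in shPrmt1 cells (log2 fold change 0.91 ± 0.11, SE; limma, adjusted p = 0.0013). Tmem140, which encodes a transmembrane protein, had 39.6, 53.3 and 28.7 against 81.2, 84.8 and 116. Its log2 fold change of 1.22 ± 0.25 (SE; limma) had an adjusted p of 0.016, which rose to 0.061 without shControl 1, to 0.052 without shControl 3 and to 0.053 without shPrmt1 3. Here too the lowest shPrmt1 library was above the highest shControl library.

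Ifi44 had the greatest rise of the set. Its shControl libraries held 622, 595 and 579 normalized counts and its shPrmt1 libraries 2818, 3859 and 2839, and the log2 fold change of 2.39 ± 0.12 (SE; limma, adjusted p = 3e-05) placed it in the top 0.183% of the genes tested by size of increase. Xaf1, a partner of the apoptosis inhibitor XIAP, had 199.9, 228 and 228 in shControl and 601, 809.7 and 632 in shPrmt1 cells, a log2 fold change of 1.62 ± 0.13 (SE; limma, adjusted p = 0.0002). For Ifi44 and Xaf1 alike, shPrmt1 2 was the highest library. Ifi35, a leucine zipper protein that binds NMI, had 226, 199 and 216 in shControl against 413, 339 and 379 (log2 fold change 0.81 ± 0.11, SE; limma, adjusted p = 0.0024). It was the smallest rise, and it still lay in the top 3.11% of all increases.

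MS023 and GSK3368715 were given at the same dose for the same time. All 10 genes had higher means with each inhibitor than with vehicle, and 9 were called higher each time. The ratio of each gene was below its ratio in the knockdown experiment, a difference that was not tested. Mx1 was 2.78-fold higher with MS023 and 2.44-fold higher with GSK3368715 than with vehicle, Tmem140 2.14-fold and 1.69-fold, and Rsad2 1.9-fold and 1.94-fold. Rtp4 was at the other end, with 1.19-fold and 1.22-fold. Limma called 9 of 10 higher with MS023, where 13.7% of the 13014 genes tested were called higher, and 9 of 10 higher with GSK3368715, where 5.16% were. The inhibitor libraries lay above all vehicle libraries for 9 of the 10 genes in each comparison, against 22.4% of all genes tested with MS023 and 13.7% with GSK3368715. The gene outside these counts was Xaf1 each time. The median log2 fold change of the 10 was 0.68 with MS023 and 0.67 with GSK3368715, and those of all genes tested were 0.0028 and 0.00042. Both comparisons use the same 3 vehicle libraries, so they are not independent of each other. Here too the shares over all genes only describe a set chosen with earlier results known.

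**Figure D2:**
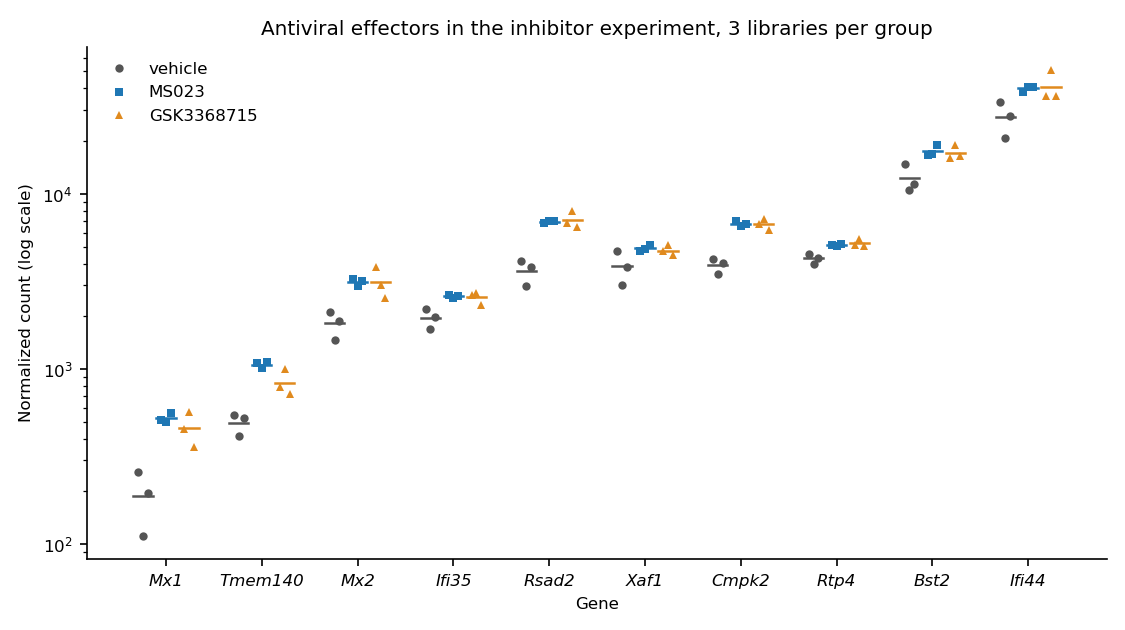
Normalized counts (log scale) of the 10 antiviral genes in the 3 vehicle (circles), 3 MS023 (squares) and 3 GSK3368715 (triangles) libraries, with a short line at each group mean. The circles of each gene spread more than the squares, and only Xaf1 has a vehicle library, at 4715 normalized counts, within the range of the inhibitor libraries.

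Rsad2 had 4131, 2979 and 3818 normalized counts in vehicle libraries 1, 2 and 3, then 6822, 6967 and 6985 with MS023 and 6825, 7954 and 6445 with GSK3368715. The log2 fold changes were 0.94 ± 0.11 (SE; limma, adjusted p = 0.00027) for MS023 and 0.97 ± 0.11 (SE; limma, adjusted p = 0.00098) for GSK3368715. Cmpk2 moved from 4270.1, 3480.4 and 4041 with vehicle to 6967, 6536 and 6764 with MS023 and to 6767, 7167 and 6245 with GSK3368715. Its log2 fold changes, 0.79 ± 0.08 (SE; limma, adjusted p = 0.00011) and 0.78 ± 0.08 (SE; limma, adjusted p = 0.00055), were close to each other, and no alternative that was run ended the calls of Rsad2 or Cmpk2 with either inhibitor.

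Mx1 gave the widest ratio of the set with both inhibitors. The vehicle libraries had 258, 111 and 195 normalized counts, the MS023 libraries 509, 495 and 564, and the GSK3368715 libraries 456, 566 and 357. Its log2 fold change was 1.55 ± 0.26 (SE; limma, adjusted p = 0.0018) with MS023 and 1.34 ± 0.26 (SE; limma, adjusted p = 0.012) with GSK3368715. Mx2 had 2124, 1460.0 and 1878 with vehicle, 3275, 2993 and 3166 with MS023, and 3829, 3023 and 2527 with GSK3368715. In both GTPase genes the 3 libraries of each inhibitor lay above those of vehicle, and the log2 fold changes of Mx2 were 0.80 ± 0.15 (SE; limma, adjusted p = 0.0035) and 0.78 ± 0.15 (SE; limma, adjusted p = 0.012).

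Bst2 had 14873, 10497 and 11357 normalized counts with vehicle, 16663, 16860.2 and 18932 with MS023, and 16054, 18992 and 16448 with GSK3368715. The log2 fold change was 0.53 ± 0.12 (SE; limma, adjusted p = 0.0075) with MS023. With GSK3368715 it was 0.50 ± 0.12 (SE; limma, adjusted p = 0.024), a call that was lost without vehicle 2 (0.40, adjusted p = 0.052), vehicle 3 (0.45, adjusted p = 0.089), GSK3368715 2 (0.42, adjusted p = 0.079) or GSK3368715 3 (0.53, adjusted p = 0.05), and also with no trend in the fit (adjusted p = 0.066), with the replicate block (0.054) and with only the compared groups in the fit (0.061). Rtp4 held the tightest values, 4545, 3983 and 4329 with vehicle against 5121, 5064 and 5172 with MS023 and 5127, 5534 and 5064 with GSK3368715, and its small log2 fold changes of 0.26 ± 0.06 (SE; limma, adjusted p = 0.0094) and 0.29 ± 0.06 (SE; limma, adjusted p = 0.014) were both called, the latter not with only the compared groups in the fit (adjusted p = 0.053). Tmem140 had 543, 415 and 525 with vehicle, 1076, 1007 and 1092 with MS023 and 788, 1003 and 715 with GSK3368715. Its log2 fold change was 1.11 ± 0.13 (SE; limma, adjusted p = 0.00029) with MS023 and 0.75 ± 0.13 (SE; limma, adjusted p = 0.0071) with GSK3368715.

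Ifi44 was the gene with the most normalized counts, and its vehicle libraries differed widely. It had 33258, 20895 and 27787 with vehicle, 38153, 40935 and 40962 with MS023, and 36124, 50806 and 36081 with GSK3368715, so that vehicle 1 came near the inhibitor libraries while vehicle 2 was far below. The log2 fold change was 0.58 ± 0.16 (SE; limma, adjusted p = 0.023) with MS023 and 0.59 ± 0.16 (SE; limma, adjusted p = 0.045) with GSK3368715. The MS023 call was lost when vehicle 2 (0.40, adjusted p = 0.057), vehicle 3 or any of the MS023 libraries was left out, with adjusted p-values from 0.051 to 0.07, and with no trend in the fit (adjusted p = 0.062). The GSK3368715 call was lost on leaving out any single library except vehicle 1, with adjusted p-values from 0.057 to 0.13. It was also lost with no filter (adjusted p = 0.061), no trend (0.1), the replicate block (0.089) and only the compared groups in the fit (0.11). Ifi35 had 2203, 1692 and 1972 with vehicle, 2639.8, 2534 and 2617 with MS023 and 2645, 2718 and 2317 with GSK3368715. It was called with MS023 (log2 fold change 0.42 ± 0.09, SE; limma, adjusted p = 0.0081) and with GSK3368715 (0.39 ± 0.09, SE; limma, adjusted p = 0.026), and the latter call was lost without vehicle 3 (adjusted p = 0.071), GSK3368715 1 (adjusted p = 0.08) or GSK3368715 2 (adjusted p = 0.08), with no trend in the fit (adjusted p = 0.06) and with only the compared groups (adjusted p = 0.075).

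Xaf1 did not pass the main test with either inhibitor. Its vehicle libraries had 4715, 3008 and 3824 normalized counts, the MS023 libraries 4694, 4842 and 5107, and the GSK3368715 libraries 4695, 5091 and 4454, so that vehicle 1 lay above the lowest library of each inhibitor. The log2 fold change was 0.37 with a 95% interval of 0.08 to 0.65 (limma, adjusted p = 0.056) for MS023 and 0.32 with an interval of 0.04 to 0.61 (limma, adjusted p = 0.14) for GSK3368715. Without vehicle 1 it was called with MS023 (0.52, adjusted p = 0.0038) and with GSK3368715 (0.48, adjusted p = 0.014), and without vehicle 2 the log2 fold changes were 0.20 and 0.16. Of 20 alternatives, 4 called Xaf1 with MS023, DESeq2 on recovered reads among them, and 1 called it with GSK3368715. In the knockdown experiment the same gene had one of the larger rises, with no overlap of the groups. The difference between the experiments was not tested, as their tables were normalized separately.

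**Figure D3:**
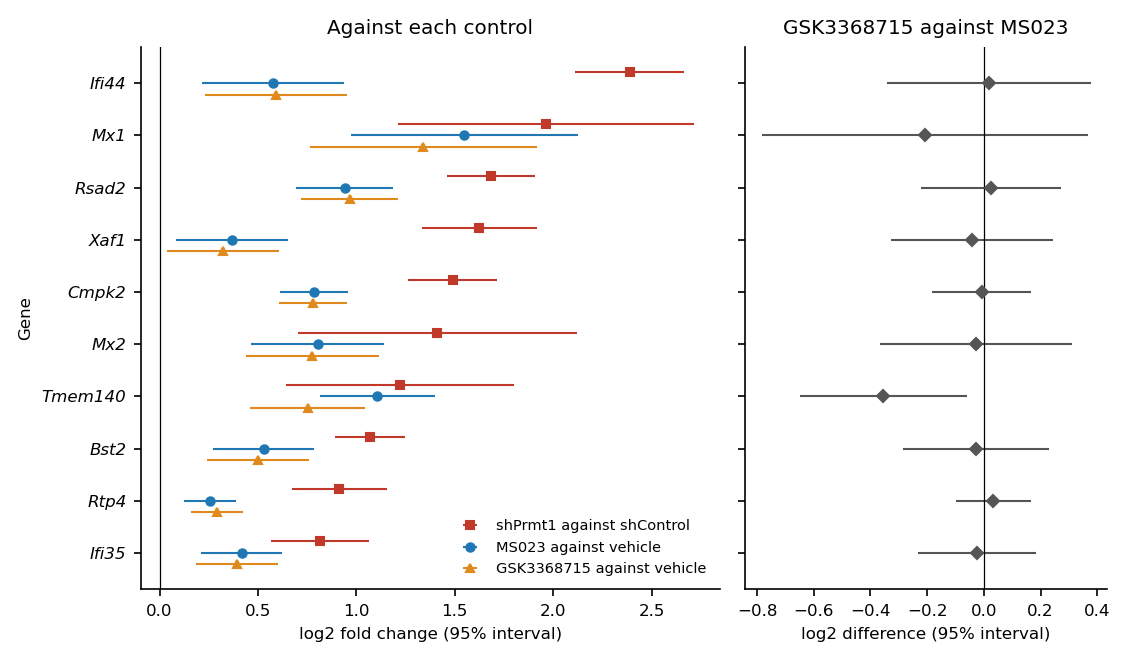
Log2 fold changes with 95% intervals (limma) of the 10 antiviral genes for shPrmt1 against shControl (squares), MS023 against vehicle (circles) and GSK3368715 against vehicle (triangles), left, and the difference of GSK3368715 from MS023, right. All intervals on the left lie above 0, the squares run from 0.81 to 2.39, and on the right only the interval of Tmem140, -0.65 to -0.06, leaves out 0 before adjustment.

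The inhibitors were also compared with each other directly, over their 3 libraries each. None of the 10 genes was called different by limma at an adjusted p under 0.05, where 0.515% of the genes tested were called in either direction. edgeR and DESeq2 on recovered reads called 0 of the 10 as well, and at an unadjusted p under 0.05 limma had 1, Tmem140. Tmem140 was lower with GSK3368715 by a log2 difference of -0.35 (95% interval -0.65 to -0.06, unadjusted p = 0.022 and adjusted p = 0.29 by limma), and its highest GSK3368715 library, 1003 normalized counts, lay just under its lowest MS023 library, 1007. For Mx1 the difference was -0.21 with an interval of -0.78 to 0.37. The intervals of the other 8 genes reached no further than -0.37 on the lower side and 0.38 on the upper side, and the tightest was that of Rtp4, -0.10 to 0.17. These intervals bound the differences, and they do not show that the compounds act alike.

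In the inhibitor experiment the vehicle and GSK3368715 libraries differed among themselves in the same direction for most of the 10 genes. Each gene was expressed as its log2 difference from the mean of the control libraries of its experiment, and the mean of the 10 was taken per library. Among the vehicle libraries this mean was 0.24, -0.29 and 0.04, and vehicle 1 was the highest and vehicle 2 the lowest for 10 of 10 genes. GSK3368715 libraries ran 0.67, 0.83 and 0.51, with the second the highest for 9 genes and the third the lowest for 9. MS023 libraries lay closer, at 0.72, 0.70 and 0.78. How many of all genes order the libraries in these ways was not counted, so the common order is not read as particular to the set. In the knockdown experiment the shControl means were -0.05, -0.02 and 0.07, with no common order of the genes, and the shPrmt1 means 1.35, 1.56 and 1.46. Vehicle 2 was the deepest vehicle library, with 73450043 reads on genes against 48766758 and 49681893, and the part of depth in its low values was not tested. Without vehicle 2, 8 of 10 genes were called with MS023 and 7 of 10 with GSK3368715. In that fit 1653 of 12960 genes tested were called higher with MS023 and 641 of 12960 with GSK3368715.

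**Figure D4:**
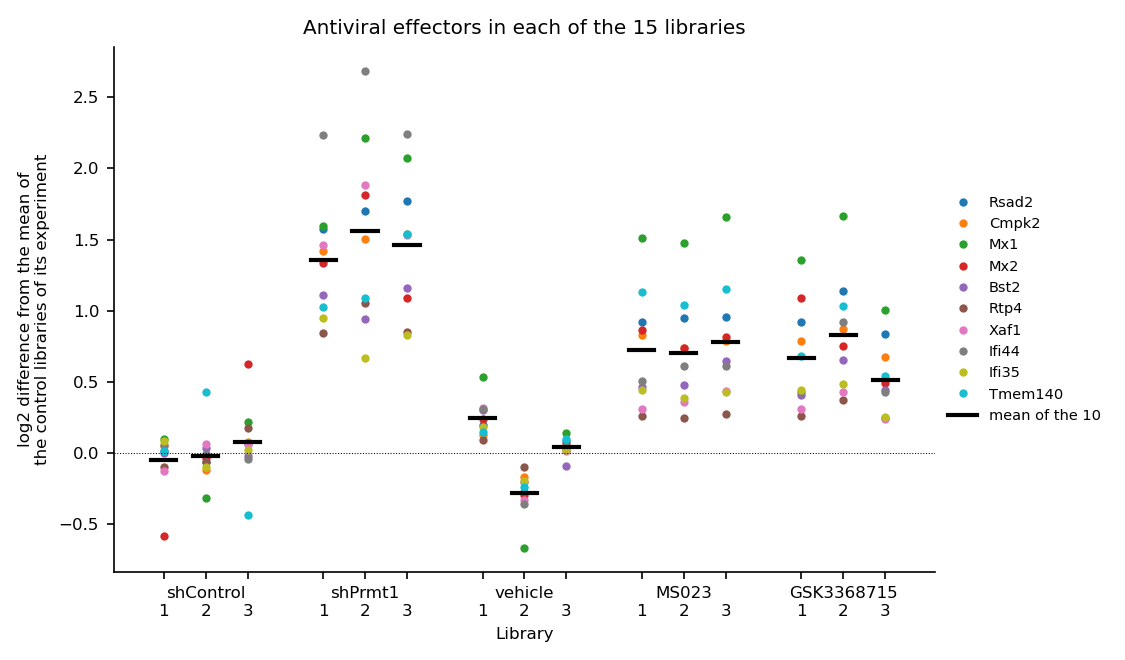
Log2 difference of each of the 10 antiviral genes (points, by color) from the mean of the control libraries of the same experiment, in each of the 15 libraries, with the mean of the 10 as a bar. The bars lie at 1.35 to 1.56 in shPrmt1 and at 0.51 to 0.83 in the inhibitor libraries, and those of vehicle run from -0.29 to 0.24.

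Levels were compared between genes as RPM per kilobase of the longest annotated transcript. That transcript has only 2 exons for Ifi44 (4064 bases) and for Tmem140. Which transcripts the cells expressed was not examined, so the order of the genes, including the places of Ifi44, depends on this length. In shControl cells Bst2 was the highest at 43.6 ± 1.00 (SD, n = 3), followed by Rtp4 (9.27 ± 1.02), Ifi35 (7.41 ± 0.44), Ifi44 (6.97 ± 0.21), Xaf1 (3.98 ± 0.32), Cmpk2 (2.47 ± 0.17), Rsad2 (1.75 ± 0.08), Mx2 (1.11 ± 0.48), Tmem140 (0.59 ± 0.18) and Mx1 (0.092 ± 0.019). The libraries of Ifi35 and Ifi44 overlapped in this order, as did those of Mx2 and Tmem140. In shPrmt1 cells Ifi44, at 37.7 ± 6.62, stood second to Bst2, at 94.0 ± 8.05, with no overlap to Rtp4 below it. Vehicle cells had the same leading genes, Bst2 at 258 ± 50.8, Ifi44 at 112 ± 26.3 and Rtp4 at 38.4 ± 2.87, and Mx1 was last in all 5 groups. With MS023 and GSK3368715, Bst2 reached 377 ± 26.7 and 365 ± 33.6 and Ifi44 168 ± 6.60 and 169.7 ± 35.1 RPM per kilobase.

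The control cells of the 2 experiments differed in these genes. In RPM, the vehicle mean was above the shControl mean for 10 of 10 genes, by 3.23-fold for Ifi35 up to 16.1-fold for Ifi44, with 8.29-fold for Rsad2 and 8.1-fold for Cmpk2. It was also above the shPrmt1 mean for each gene, by 1.79-fold for Ifi35 up to 4.17-fold for Mx2. The share of all genes with a higher vehicle mean was not counted, so these counts are not read as particular to the set. No test was made across the tables, and the cell line derivative, the culture and the sequencing run cannot be told apart in this contrast.

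Some reads cannot be assigned to these genes alone. Tmem140 overlaps Cyren, a gene on the opposite strand, over 2168 bases of exon, and 36.3% of the 31-base words of its transcripts also occur in Cyren. Cyren itself was not called in any comparison, with log2 fold changes of -0.63 (limma, adjusted p = 0.067) in shPrmt1 cells, -0.27 (adjusted p = 0.11) with MS023 and -0.13 (adjusted p = 0.53) with GSK3368715, opposite in sign to Tmem140. Whether counting used the strand is not given in the sources used here. Mx1 and Mx2 share 7.22% and 7.96% of their words with each other. Ifi35 shares 12.8% with the antisense gene Gm11626 and Rtp4 12.5% with Gm45338, which were not used here, and the other 5 genes share at most 3.27% with any other genes.

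Genes of interferon signalling were measured in the same libraries. No order in time between their changes and those of the set was measured. Among all 11485 genes tested in the knockdown, 861 (7.5%) were called higher and 823 lower. Of 14 genes of interferon signalling and its regulators, 13 were tested in the knockdown, where 5 were called higher and 0 lower, namely Irf7 (log2 fold change 1.80), Usp18 (1.63), Irf9 (0.64), Stat2 (0.60) and Jak1 (0.30). IRF7 is a transcription factor that amplifies interferon production, and USP18 is a protease that dampens the receptor. Not called were Sting1 (0.29), Ifnar2 (0.16), Irf1 (0.14), Cgas (0.11), Ifnar1 (0.05), Tyk2 (-0.02), Irf3 (-0.16) and Socs1 (-0.52). Ifnb1, the gene of interferon beta, was not tested in the knockdown, with means of 0.37 and 1.13 normalized counts.

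With MS023, 6 of the 14 signalling genes were called higher and 0 lower, Irf7 (0.93), Stat2 (0.66), Irf1 (0.48), Usp18 (0.45), Sting1 (0.36) and Tyk2 (0.28). GSK3368715 had 4 called higher and 0 lower, Irf7 (0.68), Stat2 (0.59), Irf1 (0.50) and Sting1 (0.24). Of all 13014 genes tested, 1784 (13.7%) were called higher and 1841 lower with MS023. With GSK3368715 these were 672 (5.16%) and 582. The others of the 14 signalling genes were not called. They had log2 fold changes of 0.59 (Ifnb1), 0.27 (Irf9), 0.16 (Socs1), 0.12 (Ifnar1), 0.09 (Jak1), 0.08 (Irf3), 0.02 (Cgas) and -0.0034 (Ifnar2) with MS023. With GSK3368715 they had 0.80 (Ifnb1), 0.51 (Usp18, adjusted p = 0.054 by limma), 0.26 (Irf9), 0.26 (Socs1), 0.18 (Tyk2), 0.17 (Cgas), 0.15 (Jak1), 0.11 (Irf3), 0.06 (Ifnar1) and -0.04 (Ifnar2). Ifnb1 had means of 9.23 ± 1.53 normalized counts with vehicle, 14.3 ± 1.49 with MS023 and 17.6 ± 7.36 with GSK3368715 (SD, n = 3).

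Other antiviral effectors were called in both directions. Of 20 listed genes outside the set 19 were tested, and 8 were called higher and 2 lower in the knockdown, 9 and 2 with MS023, and 6 and 1 with GSK3368715. Their median log2 fold changes were 0.18, 0.21 and 0.23. Over all genes tested, 7.5%, 13.7% and 5.16% were called higher in the same order. Called lower were 823 of 11485, 1841 of 13014 and 582 of 13014 genes. Ifi27l2a had the largest rise of the list in the knockdown (2.16) and with each inhibitor (0.83 and 0.77), whereas its relative Ifi27 fell in each comparison (-0.86, -1.07 and -0.82). Ifitm3, which blocks viral fusion, was called higher in the knockdown (0.78) and with MS023 (0.34), and Ifitm1 was called lower in the knockdown (-1.01). A list of this kind, chosen with earlier results known, is described by its counts alone.

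**Figure D5:**
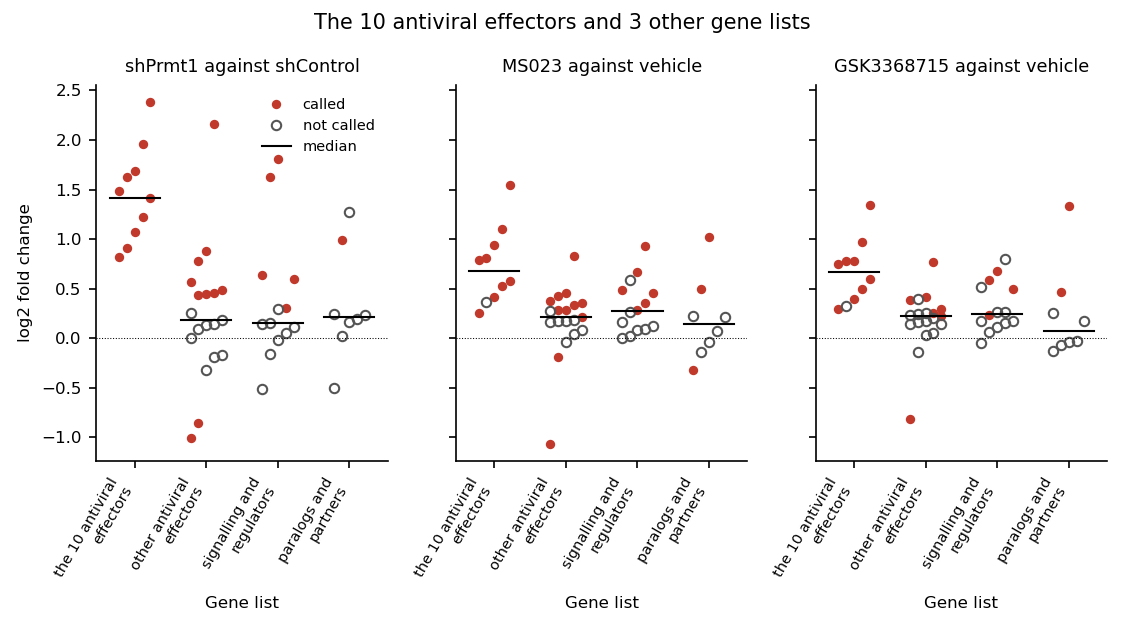
Log2 fold changes of the 10 antiviral genes and of the tested genes of 3 other lists in each comparison with controls, with filled points for genes called by limma, open points for genes not called and a line at the median, taken without Mx1 for the 10 genes in the knockdown. The 10 genes lie above 0 in all 3 panels, with medians of 1.41, 0.68 and 0.67, and the other antiviral effectors lie on both sides of 0.

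Partners, paralogs and substrate suppliers of the set were mostly not called. Of the 8 tested, 1 was called higher and 0 lower in the knockdown, 2 and 1 with MS023, and 2 and 0 with GSK3368715. The shares called higher over all genes tested were 7.5%, 13.7% and 5.16%. Called lower were 823 of 11485, 1841 of 13014 and 582 of 13014 genes. Counts this small are not read as a trait of the list. Nmi, the binding partner of IFI35, rose in all 3 comparisons (log2 fold changes 0.99, 0.50 and 0.47). Ifi44l, the paralog beside Ifi44, had log2 fold changes of 1.28 (not called, adjusted p = 0.076 by limma), 1.02 and 1.34. Its shControl libraries had 3.52, 6.48 and 7.74 normalized counts, so in the knockdown it passed the filter through its shPrmt1 libraries alone. Ctps, a CTP synthase that supplies the substrate of RSAD2, fell with MS023 (-0.32) and had 0.19 in the knockdown and -0.13 with GSK3368715. Its relative Ctps2 had 0.02, 0.07 and -0.02 in the same order, and Cmpk1, the cytosolic counterpart of CMPK2, 0.23, -0.14 and -0.04. The dynamin gene Dnm2 had 0.16, -0.04 and -0.07, the partner of XAF1, Xiap, had 0.25, 0.22 and 0.26, and Ciao1, which helps to insert iron-sulfur clusters, had -0.50, 0.21 and 0.18, none of them called. Rtp3, a paralog of Rtp4, was too low to be tested in any comparison.

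The genes next to the set on the chromosome were measured in the same way. The nearest protein-coding gene on each side gave 17 genes outside the set, of which 6 passed the filter in the knockdown and 8 in the inhibitor experiment. In the knockdown Wdr91, which lies 5.48 kb from Tmem140, was the 1 gene called higher (log2 fold change 0.51). With MS023 there were 3, Ifi44l (1.02), Vat1 (0.35) and Wdr91 (0.34), and Agbl3 was called lower (-0.64), while GSK3368715 had Ifi44l alone (1.34). Vat1 lies 0.046 kb from Ifi35, and had -0.14 in the knockdown and 0.03 with GSK3368715. Rpl27 on the other side of Ifi35 had -0.14, -0.12 and -0.01, and Mvb12a beside Bst2 had -0.47, -0.23 and -0.20, none called. Fbxo39 beside Xaf1 (0.51 with MS023 and -0.45 with GSK3368715) and Ccdc194 beside Bst2 (0.13 and -0.34) were tested in the inhibitor experiment alone and were not called. The other 9, Rnf144a, Sox11, Bace2, Fam3b, Tmprss2, Rtp1, Sst, Slc13a5 and Adgrl4, were tested in neither experiment. For comparison, 7.5% of all genes tested were called higher in the knockdown, 13.7% with MS023 and 5.16% with GSK3368715. With MS023, 1841 of 13014 were called lower. The few calls among the neighbours are not read as a trait of these genes.

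The genes whose pattern was most like that of the set were sought over the 15 libraries, by Pearson's r with the mean of the 10 genes among 11461 other genes. They were Trim12c (r = 0.995), Sp100 (0.991), Gbp7 (0.989), Oas2 (0.987) and Samd9l (0.987). Oas2 makes an activator of RNase L, and Sp100 is a component of nuclear bodies. Trim12c had log2 fold changes of 1.36, 0.67 and 0.55 in the knockdown, with MS023 and with GSK3368715, and Oas2 had 2.16, 1.18 and 1.00. These r values are a description over the same libraries, in which any gene with similar differences between the groups scores high.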

How the data were processed

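RNA from CT26 cells was sequenced as paired-end reads (Kapa mRNA Hyper Prep, Illumina NextSeq). Per the labels, Salmon 1.4.0 on mm10 and DESeq2 made the tables, and the deposited signal of a gene is its count over the size factor of the library. All values were whole multiples of 1 read (tolerance 0.1; 100% of values), so whole reads were recovered. Of the columns of per-sample values, 0 were left out. The deposited tables of the authors' own comparisons hold log2 fold changes and p-values and were not used.

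A gene entered a fit when 3 or more of its libraries reached 10 normalized counts. limma (lmFit, eBayes with a trend) was run on log2(normalized count + 1), which understates changes of low genes. Its p-values are two-sided and were adjusted by Benjamini and Hochberg's method over all genes tested, with a threshold of 0.05. The 6 knockdown libraries formed one fit and the 9 inhibitor libraries another. The tables of both experiments were normalized separately and no test was run across them. The alternatives were other pseudocounts, filters and scalings, no trend, a block for the replicate number, a fit of the compared groups alone, each library left out in turn, and edgeR and DESeq2 on recovered reads. Scripts were tested on simulated data. No source used here names molecular identifiers, and the error of a value was taken from the replicates.

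Named are all 10 genes, the tested regulators and partners of the lists, the nearest protein-coding neighbours and the 5 most similar genes; 1 regulator chosen for the list is not reported here. Members and lists were chosen with earlier results of these data known. The tools were limma 3.58.1, edgeR 4.0.16 and DESeq2 1.42.0 under R 4.3.3. Positions are from the GENCODE annotation of mm10, promoters from RefSeq GRCm38.p6.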

Additional observations from a re-analysis of the deposited data

How the results depend on the processing

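With Mx1 counted apart in the knockdown, limma called 9 of 9 genes higher there, and of the 10 genes 9 with MS023 and 9 with GSK3368715. With 1 library left out these counts ran from 7 to 9, from 8 to 10 and from 6 to 10, and that of genes called different between the inhibitors stayed at 0. Over all genes tested, those called higher then ran from 370 to 1181, from 1181 to 1850 and from 323 to 674. With only the groups compared in the fit, 5 of the 10 genes were called with GSK3368715, without Bst2, Rtp4, Ifi44 and Ifi35. In that fit 306 of 12751 genes tested were called higher. With no trend the counts of the set were 9, 8 and 6, and with no filter 9, 9 and 8. Over all genes tested, 712 of 11485, 1638 of 13014 and 554 of 13014 were called higher with no trend. With no filter these were 747 of 17897, 1566 of 20718 and 512 of 20718. For the set, recovered reads gave 9, 9 and 9 with edgeR and 9, 10 and 9 with DESeq2. Of 11485, 13014 and 13014 genes tested, edgeR called 896, 1820 and 669 higher, and DESeq2 1099, 1961 and 936. Mx1 was called in the knockdown with no trend, with no filter, by edgeR and by DESeq2. Mx1 was not tested in the knockdown with a minimum of 50 normalized counts or without 1 of the shPrmt1 libraries, since it then missed the filter.

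No source used here says that the replicate numbers pair the libraries. In the knockdown the correlation of deviations was 0.0614 to 0.116 for equal numbers and -0.0943 to 0.0328 for unequal ones. Each knockdown library thus correlated best with its own number, a hint of pairing from the data and not the design. With inhibitors the ranges overlapped, -0.102 to 0.113 for equal and -0.134 to 0.173 for unequal numbers. With the replicate block the counts were 9, 9 and 7, GSK3368715 losing Bst2 (adjusted p = 0.054 by limma) and Ifi44 (adjusted p = 0.089), and the genes called in the whole knockdown fit rose from 1684 to 2671. Over all genes tested, 1346 of 11485, 1578 of 13014 and 459 of 13014 were called higher with the block.

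Log2 differences between the inhibitors near 0 changed sign. With the same upper quartile Rsad2 had -0.022, Rtp4 -0.014 and Ifi44 -0.030, and with the same total Ifi44 had -0.0034. With 1 library left out they ran from -0.062 to 0.090 (Rsad2), -0.055 to 0.044 (Cmpk2), -0.19 to 0.11 (Mx2), -0.10 to 0.030 (Bst2), -0.0067 to 0.057 (Rtp4), -0.093 to 0.0031 (Xaf1), -0.15 to 0.099 (Ifi44) and -0.069 to 0.046 (Ifi35). The cause was not tested.

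Over all genes, 1684 were called in the knockdown (652 to 2472 with 1 library left out), 3625 with MS023 (2409 to 3726), 1254 with GSK3368715 (586 to 1274, and 597 with only its groups in the fit) and 67 between the inhibitors (2 to 114; 38 with no filter, 8 with no trend, 4 with the replicate block and 365 with DESeq2). The share of higher calls was 51.1% in the knockdown, 45.8% at the same upper quartile and 61.9% at the same total, 49.2% with MS023 and 65.9% at the same upper quartile or 59.3% at the same total, and 61.2% between the inhibitors, 39.1% and 46.8% under these scalings.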
